A study of Mus musculus with 22 samples.

Results

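Mice of one strain differ between commercial vendors, and the gut microbes they carry differ too. The comparison described here asks whether the liver RNA difference between mice from the vendors TAC and JAX came back, vanished or turned round between germ-free mice that had been given the microbes of each. It rests on a single number per gene, the interaction. This is the GF_TAC minus GF_JAX difference, called the recipients' difference, minus the TAC minus JAX difference, called the vendor difference, all on the log2(RPKM + 1) scale. RPKM are reads per kilobase of transcript, scaled to the reads of the library. A gene agrees where both differences have the same sign, and it reverses where their signs are opposite. Of 22 libraries in the series, 18 entered the comparison. Of 23909 gene symbols, 12115 reached an RPKM of 1 in 4 or more of those 18 libraries and were tested, and 11794 were not.

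The groups were GF_TAC (5 libraries, germ-free mice inoculated with cecum material of TAC mice), GF_JAX (5 libraries, germ-free mice inoculated with cecum material of JAX mice), TAC (4 libraries) and JAX (4 libraries). All were livers of fasted male C57BL/6 mice; no age is given in the labels. The recipients were taken 4 weeks after the transfer and fasted for 16 h, as the design text states for them alone. Whether each library is 1 animal is not stated, and the p-values therefore describe the spread between these libraries, part of which may be technical. The labels name no substrain, so a vendor's microbes and anything else that differs between the vendors' mice cannot be told apart in the vendor difference. In the recipients' difference the hosts were germ-free mice on both sides, also of no named substrain. Whether the hosts of GF_TAC and GF_JAX were otherwise alike was not tested. Of the RPKM of Eif3j1 and Eif3j2 together, Eif3j2 took 95.8% to 98.9% in GF_TAC, but 0.305% to 98.5% in GF_JAX. RNA was poly(A)-selected from whole liver, where fewer cells of a type and less RNA per cell cannot be told apart.

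Many of the genes with the smallest interaction p belong to protein folding in the endoplasmic reticulum (ER). Hepatocytes secrete most plasma proteins, and these fold in the ER with the help of chaperones such as BiP and of disulfide isomerases. When unfolded proteins accumulate, the sensors IRE1, PERK and ATF6 start the unfolded protein response, in which ATF6 and XBP1 raise chaperone genes through promoter elements called ER stress response elements, while PERK acts through the factor ATF4. The cytosol has a separate system, in which heat shock factor 1 raises Hsp70, Hsp90 and their partners. In liver, chaperone genes also follow feeding and fasting.

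Depth differed between the groups in the same pattern as the interaction itself. The steps between low RPKM values gave each library's depth relative to the library JAX 1. It averaged 1.12 ± 0.175 in GF_TAC (SD, n = 5) and 0.786 ± 0.279 in GF_JAX (SD, n = 5), against 0.956 ± 0.109 in TAC (SD, n = 4) and 1.32 ± 0.276 in JAX (SD, n = 4), an interaction of 0.70 in relative depth. Estimated counted reads were 2.06 to 2.99 M in GF_TAC, 1.32 to 2.79 M in GF_JAX, 1.82 to 2.40 M in TAC and 2.24 to 3.70 M in JAX. The 3 most abundant hepatocyte transcripts examined, Alb, Apoa1 and Apoe, varied between libraries by 29.0%, 29.6% and 29.9% (coefficient of variation), and by 2.13%, 1.93% and 1.55% once multiplied by depth. Their interactions were -0.96 for Alb, -0.92 for Apoa1 and -0.96 for Apoe over 18 libraries. In the 8 libraries of matched depth they were 0.01, 0.06 and -0.00. These 8 are the libraries within 0.1 relative depth of GF_JAX 2 among recipients (GF_TAC 1, 2 and 5 and GF_JAX 2) or of JAX 1 among vendor mice (TAC 1, 3 and 4 and JAX 1), a choice made after seeing the data. Values from them are given as "at matched depth"; with GF_JAX and JAX at 1 library each, the lone library is assumed to vary like the others. The recipients GF_JAX 1 and GF_JAX 4 shared with all vendor libraries a rise of RPKM with transcript length, relative to each gene's mean, while the other recipients showed a fall.

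The genes that passed were almost all ones whose difference between recipients had the opposite sign to that between vendors. The interaction test favours such genes, because it picks those whose recipients' and vendor differences lie far apart. Their number is therefore not evidence of reversal by itself. The interaction passed an adjusted p of 0.05 in 196 of 12115 genes (1.62%), 136 of them negative (1.12%) and 60 positive (0.495%). Of the 196, 191 had differences of opposite sign (1.58% of genes tested) and 5 of the same sign (0.0413%), and in 160 of the 191 each difference also reached an unadjusted p of 0.05 (1.32%). All 136 genes with a negative interaction were higher in TAC than in JAX by point estimate, and all 60 with a positive one were lower, which the same selection favours. Among all genes tested, 63.2% had differences of opposite sign and 36.7% of the same sign.

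A stricter test asks that the recipients' and the vendor difference each be established, and takes the larger of their p-values. By that test 0 genes reversed (0.0%) and 0 agreed (0.0%) after adjustment. At an unadjusted larger p below 0.05, 338 genes reversed (2.79%) and 26 agreed (0.215%). The lowest adjusted p for reversal was 0.157, shared by Pdia4 and Hspa5, followed by 0.239 for Hsp90b1 and Hyou1 and 0.267 for Soat2. With library quality weights 3 genes passed for reversal (Hsp90b1, Hspa5 and Pdia4), and without the library JAX 2 it was 2 (Hyou1 and Pdia4). Counting by ranges, 49 genes reversed with no overlap between the groups on either side (0.404%), 37 of the 136 negative and 6 of the 60 positive among them, and 0 agreed in that way (0.0%).

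The size of the reversal was modest in the typical gene. In the 136 genes with a negative interaction the median recipients' difference was -0.35 and the median vendor difference 0.39. In the 60 genes with a positive interaction these medians were 0.44 and -0.73. Over all tested genes they were 0.01 and 0.00. The genes with a negative interaction were abundant, with a median level of 137 RPKM, against 9.42 RPKM for those with a positive one and 13.7 RPKM for all tested. The depth pattern moved with this: the median interaction ran from 0.16 in the least abundant of 10 equal bins of genes to -0.28 in the most abundant, and with relative depth included in the fit it was 0.09 and 0.07 at these ends and -0.08 in the sixth bin. Negative calls lay mostly in abundant bins, with 73 of 1212 genes in the most abundant and 36 of 1211 in the ninth. Positive calls there were 0 and 2. The part of depth in single calls was not tested. At matched depth, in libraries that are a subset of those that chose these genes, the medians were -0.54 and 1.13.

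Scaling changed the split between the directions. As deposited, 69.4% of the calls were negative; with every library scaled to a common sum, which moved the median interaction of all genes to 0.18, 104 of 336 calls were negative (31.0%). With the shared-start correction, which allows for a ceiling that depth sets on abundant transcripts, the median was 0.19 and 49 of 336 calls were negative (14.6%). Relative depth as a term left 20 calls, 15 negative and 5 positive, and the libraries of matched depth left 11, 9 negative and 2 positive. Of the 39 named genes that passed over 18 libraries, 10 passed with depth as a term and 5 at matched depth. An unadjusted p below 0.05 was reached by 2129 of 12115 genes over 18 libraries (17.6%) and by 1266 at matched depth (10.4%), the background for the unadjusted counts of gene lists given for each.

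**Figure D1:**
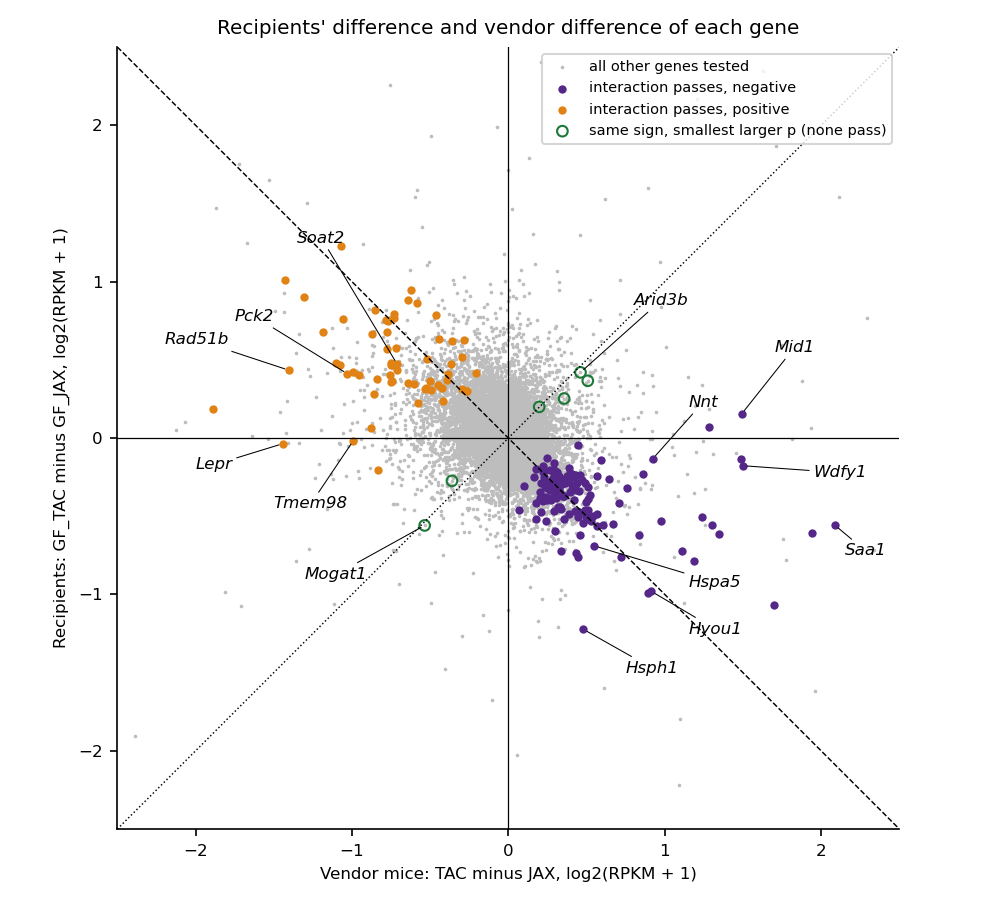
Each point is one of the genes tested; the vertical axis is the recipients' difference (GF_TAC minus GF_JAX) and the horizontal axis the vendor difference (TAC minus JAX), both in log2(RPKM + 1). Genes passing the interaction test are coloured (136 negative, 60 positive) and lie almost all in the quadrants of opposite sign, and 34 genes, 0 of them passing, fall outside the axes.

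Most ER chaperones and folding enzymes had a lower mean in GF_TAC than in GF_JAX and a higher mean in TAC than in JAX. Of 25 measured members, 16 had a negative interaction that passed and 0 a positive one, where 1.12% of all tested genes passed in that direction. In the most abundant of the 10 bins of genes 73 of 1212 did so, and in the ninth 36 of 1211. All 25 were higher in TAC than in JAX by point estimate, and 21 were lower in GF_TAC than in GF_JAX. This pair of signs was not particular to the list. It was found in 29 of 30 ribosomal protein genes and 28 of 30 respiratory chain genes. It was also found in 31 of 34 genes of amino acid breakdown and the urea cycle, but in 4 of 37 interferon-stimulated genes. In 8 of the 25 ER genes neither pair of groups overlapped and the directions were opposite, as in 49 of all 12115 tested genes (0.404%). The list's median interaction was -0.88, with a median recipients' difference of -0.39 and a median vendor difference of 0.45, against 0.02, 0.01 and 0.00 over all genes tested. At matched depth the median interaction was -0.84, 23 of the 25 were negative, 19 had an unadjusted p below 0.05 and 6 passed. With relative depth as a term the median was -0.76 and 6 passed. Without JAX 4, or without TAC 2, 10 passed.

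Several of these genes carry the classical promoter element of the unfolded protein response. The list is made of chaperone genes of the kind raised through this element. A high share in the list therefore follows from its choice and is given as a description only. Promoter windows of 300 bases, 250 before to 50 after the start, came from RefSeq on GRCm38.p6, a later build than that of the deposited values. The ER stress response element was searched on both strands as CCAAT, any 9 bases and CCACG. It was found in 7 of 19 ER chaperone genes with a window (36.8%), against 15 of 9103 tested genes (0.165%) and 39 of 32851 windows in all (0.119%). The 7 were Calr, Canx, Creld2, Dnajc3, Hsp90b1, Hspa5 and Pdia6, and each also had a negative interaction that passed. Of genes whose interaction passed, the element was in 8 of 101 negative ones with a window (7.92%) and in 0 of 44 positive ones. The 8 include the 7 named above, so this count is not separate from theirs. A match of letters is a description and not a measured binding site.

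The matches lie at chr2:34772001-34772067 (Hspa5, plus strand), chr10:86705614-86705680 and chr10:86705509-86705575 (Hsp90b1, minus strand), chr11:50325776-50325842 (Canx, minus strand), chr14:118937803-118937869 (Dnajc3, plus strand), chr12:17266467-17266533 (Pdia6, plus strand), chr15:88819496-88819562 (Creld2, plus strand) and chr8:84847051-84847117 (Calr, minus strand). Each is written 5′ to 3′ on the gene's strand, with the 2 ends of the element in capitals; where the element reads on the other strand, the capitals are CGTGG and ATTGG.
Hspa5: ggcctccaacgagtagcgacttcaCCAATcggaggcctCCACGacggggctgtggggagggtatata
Hsp90b1, farther match: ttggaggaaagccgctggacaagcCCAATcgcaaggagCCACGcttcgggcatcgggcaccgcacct
Hsp90b1, nearer match: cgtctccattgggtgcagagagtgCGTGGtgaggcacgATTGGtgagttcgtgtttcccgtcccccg
Canx: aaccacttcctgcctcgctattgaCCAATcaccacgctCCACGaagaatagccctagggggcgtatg
Dnajc3: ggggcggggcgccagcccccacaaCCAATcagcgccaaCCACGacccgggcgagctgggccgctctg
Pdia6: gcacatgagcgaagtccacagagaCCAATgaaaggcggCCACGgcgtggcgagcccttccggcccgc
Creld2: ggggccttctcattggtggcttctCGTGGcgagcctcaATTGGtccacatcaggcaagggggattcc
Calr: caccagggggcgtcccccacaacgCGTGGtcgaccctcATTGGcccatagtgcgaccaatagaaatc

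Hspa5 encodes BiP, the main Hsp70 of the ER lumen and a regulator of the stress sensors. It measured 255, 230, 231, 274 and 231 RPKM in GF_TAC and 357, 380, 478, 412 and 353 RPKM in GF_JAX. In the vendor mice it measured 375, 454, 392 and 415 RPKM in TAC and 282, 292, 267 and 274 RPKM in JAX. All GF_TAC values lie below all GF_JAX values, and all TAC values above all JAX values. The interaction was -1.24 ± 0.131 (SE; 95% interval -1.52 to -0.96; limma, adjusted p = 0.000284), from a recipients' difference of -0.69 and a vendor difference of 0.55. At matched depth it was -1.15 (adjusted p = 0.0431).

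Hyou1 encodes an ER member of the large Hsp70 family that exchanges the nucleotide of BiP. It stood at 54.96, 46.6, 51.8, 55.7 and 54.1 RPKM in GF_TAC and at 115, 115, 115, 112 and 73.8 RPKM in GF_JAX. Vendor libraries gave 91.4, 146, 122 and 116 RPKM in TAC and 45.7, 89.9, 61.7 and 57.3 RPKM in JAX. The groups overlap in neither pair, with JAX 2 just under the lowest TAC library and GF_JAX 5 lower than the rest of its group. Its interaction was -1.89 ± 0.241 (SE; adjusted p = 0.00079), the recipients' difference -0.98 and the vendor difference 0.91. At matched depth the interaction was -2.37 (adjusted p = 0.0331).

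Pdia4, a disulfide isomerase, had 124, 121, 123, 132 and 115 RPKM in GF_TAC and 167, 204, 207, 169 and 164 RPKM in GF_JAX. The TAC libraries had 183, 227, 186 and 204 RPKM and the JAX libraries 121, 158, 127 and 120 RPKM. Neither pair overlaps, and the GF_TAC libraries sit in the range of JAX or just below it. The interaction was -1.16 ± 0.140 (SE; adjusted p = 0.000691), and -1.41 at matched depth (adjusted p = 0.0331). Its recipients' difference was -0.56 and its vendor difference 0.61.

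Hsp90b1 encodes Grp94, the Hsp90 of the ER. It had 218, 215, 221, 240 and 199 RPKM in GF_TAC and 276, 294, 350, 305 and 374 RPKM in GF_JAX. In vendor mice it had 272, 329, 306 and 313 RPKM in TAC and 225, 221, 214 and 212 RPKM in JAX. Again no library of one group reaches into its partner group, and the interaction was -1.02 ± 0.127 (SE; adjusted p = 0.000691). At matched depth it was -0.88, with an adjusted p of 0.13.

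Dnajc3 (p58IPK), a BiP co-chaperone, ranged from 70.3 to 76.7 RPKM in GF_TAC and from 82.6 to 96.2 RPKM in GF_JAX, and from 85.2 to 95.8 RPKM in TAC and from 64.0 to 73.5 RPKM in JAX. The spread within each group was small and the interaction was -0.67 ± 0.0910 (SE; adjusted p = 0.00161), with -0.84 at matched depth (adjusted p = 0.122). Pdia3, which works with calnexin and calreticulin on glycoproteins, ranged from 140 to 166 RPKM in GF_TAC and from 193 to 274 RPKM in GF_JAX, and from 198 to 224 RPKM in TAC and from 139 to 160 RPKM in JAX. Its interaction was -0.92 (adjusted p = 0.00209), and -0.82 at matched depth (adjusted p = 0.13). Canx, the membrane-bound lectin chaperone calnexin, changed less, at 84.99 to 91.9 RPKM in GF_TAC and 101 to 115 RPKM in GF_JAX, and at 97.2 to 113 RPKM in TAC and 83.9 to 92.3 RPKM in JAX. The Canx interaction was -0.58 (adjusted p = 0.00425), and -0.50 at matched depth (adjusted p = 0.272), and all 3 of these genes reversed without overlap.

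Manf, a secreted ER stress protein that binds BiP, had an interaction of -1.22 (adjusted p = 0.00943), and -1.58 at matched depth (adjusted p = 0.0331). Its recipient groups overlapped, at 65.9 to 85.7 RPKM in GF_TAC and 84.99 to 150 RPKM in GF_JAX, while its vendor groups did not, at 86.9 to 115 RPKM in TAC and 51.8 to 75.3 RPKM in JAX. The other members that passed were Dnajb11, Sdf2l1, Calr, Pdia6, P4hb, Ero1lb, Creld2 and Uggt1. Those that did not pass were Dnajb9, Dnajc10, Ero1l, Ppib, Fkbp2, Sil1, Txndc5, Txndc11 and Hspa13.

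**Figure D2:**
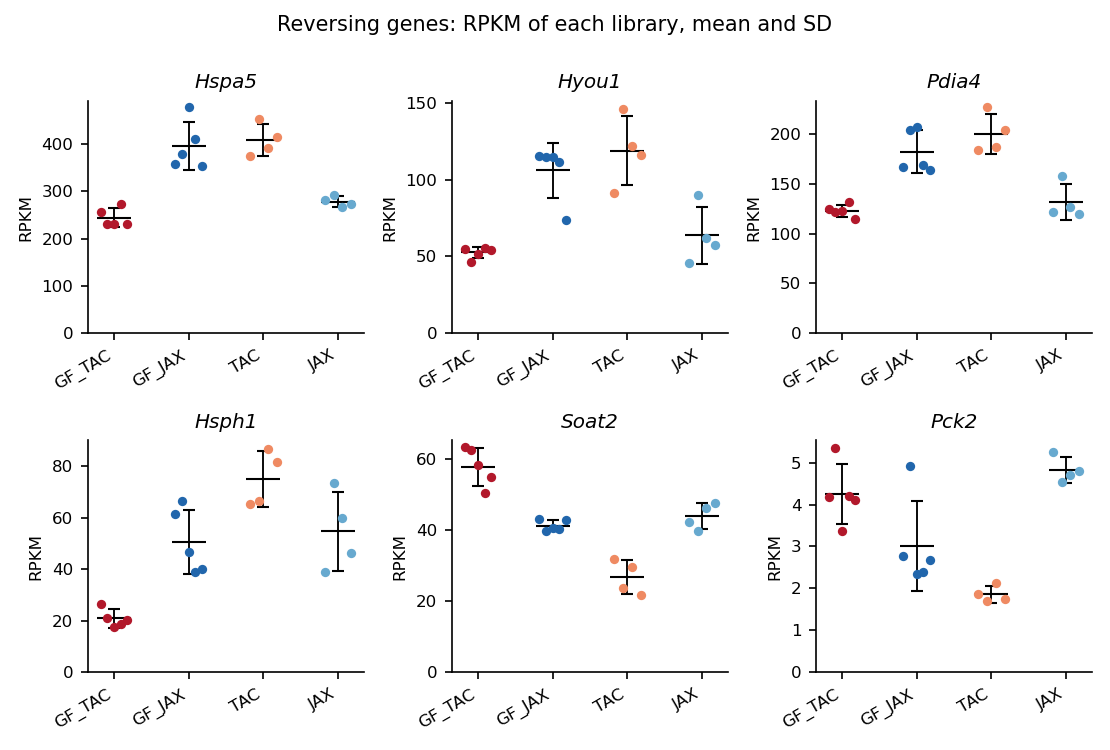
RPKM of 6 genes in every library of GF_TAC, GF_JAX, TAC and JAX, with the mean and SD of each group. For Hspa5, Hyou1 and Pdia4 the GF_TAC points lie below GF_JAX while the TAC points lie above JAX; Soat2 and Pck2 show the opposite order.

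Genes of ER-associated degradation and the secretory route followed the same direction with smaller values. Among all tested genes 1.12% passed as negative and 0.495% as positive, and of the 1212 in the most abundant bin 73 and 0. Of 29 measured in this list, 10 had a negative interaction that passed and 0 a positive one. The median interaction was -0.45 over 18 libraries and -0.34 at matched depth, where 26 of 29 were negative, 12 had an unadjusted p below 0.05 and 0 passed in limma. With relative depth as a term 0 passed and 15 had an unadjusted p below 0.05, and with the shared-start correction 1 passed. The 10 were Herpud1, Edem1, Sel1l and Syvn1 of ER-associated degradation, Sec61a1, Sec63 and Ssr3 of the translocon, and Lman1, Mcfd2 and Surf4 of cargo transport.

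Herpud1, a scaffold of the degradation complex, had 319, 310, 321, 379 and 267 RPKM in GF_TAC and 410, 421, 384, 424 and 480 RPKM in GF_JAX. It had 395, 540, 469 and 421 RPKM in TAC and 221, 320, 325 and 257 RPKM in JAX. Neither pair overlaps, and the interaction was -1.12 ± 0.178 (SE; adjusted p = 0.00425), with -1.45 at matched depth (adjusted p = 0.0594). Its promoter window holds the related element ERSE-II, searched as ATTGG, any 1 base and CCACG and present in 12 of all windows (0.0365%), at chr8:94386353-94386411 on the plus strand, with its ends in capitals.
Herpud1: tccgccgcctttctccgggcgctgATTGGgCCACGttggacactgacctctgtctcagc

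Sec61a1, the pore of the translocon, ranged from 94.7 to 98.6 RPKM in GF_TAC and from 107 to 142 RPKM in GF_JAX, and from 93.6 to 125 RPKM in TAC and from 83.6 to 88.7 RPKM in JAX, an interaction of -0.60 (adjusted p = 0.0239, and 0.0602 without JAX 4) that was -0.39 at matched depth (adjusted p = 0.383). The Sec61a1 call was also lost without JAX 3 or GF_TAC 1. Mcfd2, a partner of Lman1 in the export of coagulation factors, had an interaction of -0.45 (adjusted p = 0.0264) that passed in 12 of 18 fits with 1 library left out and was -0.19 at matched depth (adjusted p = 0.637). Vcp, the ATPase that pulls substrates out of the ER membrane, had an interaction of -0.54 (adjusted p = 0.01) and -0.38 at matched depth (adjusted p = 0.265), at 167 to 185 RPKM in GF_TAC and 181 to 224 RPKM in GF_JAX, and at 212 to 221 RPKM in TAC and 171 to 187 RPKM in JAX.

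The sensors and the ATF4 branch of the unfolded protein response gave fewer calls. Of 19 measured genes 1 passed with a negative interaction, Ddit4, and 1 with a positive one, Pck2 (background 1.12% and 0.495%). The list's median interaction was -0.31 over 18 libraries and -0.22 at matched depth, where 13 were negative. Over 18 libraries 14 were negative and 6 had an unadjusted p below 0.05. With relative depth as a term the median was -0.52, with 5 at an unadjusted p below 0.05 and 0 passing. Ddit4, an inhibitor of mTORC1 raised by stress and fasting, was 34.0 to 66.3 RPKM in GF_TAC and 48.1 to 105 RPKM in GF_JAX, and 53.2 to 123 RPKM in TAC and 17.6 to 57.6 RPKM in JAX. Both of its pairs overlap, and its interaction of -1.86 lay at the threshold (adjusted p = 0.0496, and 0.112 without JAX 4). It passed in 5 of 18 fits with 1 library left out, and at matched depth was -2.21 (adjusted p = 0.327) with a recipients' difference of -0.02.

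Most cytosolic heat shock chaperones (22 of 24) had negative interactions as well, with more of the size on the recipients' side. Among all tested genes 1.12% passed as negative and 0.495% as positive, and of the 1212 in the most abundant bin 73 and 0. Of 24 measured heat shock genes 10 had a negative interaction that passed and 0 a positive one. Their median recipients' difference was -0.44 and their median vendor difference 0.22, for a median interaction of -0.59. At matched depth the median interaction was -0.76 and 23 of 24 were negative, with 18 at an unadjusted p below 0.05 and 1 passing. Relative depth as a term left 3 passing, and leaving out JAX 4 left 4.

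Hsph1, the Hsp110 of the cytosol, had 26.7, 21.1, 17.5, 18.8 and 20.3 RPKM in GF_TAC and 61.3, 66.5, 46.6, 38.9 and 40.3 RPKM in GF_JAX. It had 65.4, 66.5, 86.8 and 81.7 RPKM in TAC and 39.1, 73.7, 60.0 and 46.2 RPKM in JAX. The recipient groups are far apart, while JAX 2 lies inside the range of TAC. The interaction was -1.70 ± 0.262 (SE; adjusted p = 0.00378), made of a recipients' difference of -1.22 and a vendor difference of 0.48. At matched depth the interaction was -2.49 (adjusted p = 0.0431).

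Dnaja1, an Hsp40 co-chaperone, reversed without overlap at 53.9 to 62.5 RPKM in GF_TAC and 67.9 to 91.8 RPKM in GF_JAX, and at 71.5 to 75.4 RPKM in TAC and 62.7 to 64.6 RPKM in JAX. Its interaction was -0.68 (adjusted p = 0.00456), and -0.68 at matched depth (adjusted p = 0.179). Hspa8, the constitutive Hsp70, averaged 383 RPKM in GF_TAC and 583 RPKM in GF_JAX, and 533 RPKM in TAC and 435 RPKM in JAX, an interaction of -0.89 (adjusted p = 0.00692) that was -0.42 at matched depth (adjusted p = 0.382). The other 7 that passed were Hsp90ab1, Hspb8, Chordc1, Ahsa1, Stip1, Fkbp4 and Hspd1. Those that did not pass were Hspa1a, Hspa1b, Hspa4, Hspa4l, Hsp90aa1, Dnajb1, Dnajb4, Hspb1, Bag3, Cacybp, Ahsa2, Hspe1, Hsf1 and Hsf2. Hspa1a and Hspa1b did not reverse. Hspa1a had a recipients' difference of -0.45 and a vendor difference of -1.16, an interaction of 0.71. Hspa1b had -1.27 and -0.30, an interaction of -0.97. By point estimate 20 of the 24 were higher in TAC and lower in GF_TAC, as were 29 of 30 ribosomal protein genes and 4 of 37 interferon-stimulated genes. A heat shock element, searched on both strands as GAA, 2 bases, TTC, 2 bases and GAA, was in the windows of 4 of 20 genes of the list (Chordc1, Hspd1, Hspe1 and Hsph1), against 0.604% of tested genes. The list is made of heat shock genes, so a high share follows from its choice and is given as a description only.

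**Figure D3:**
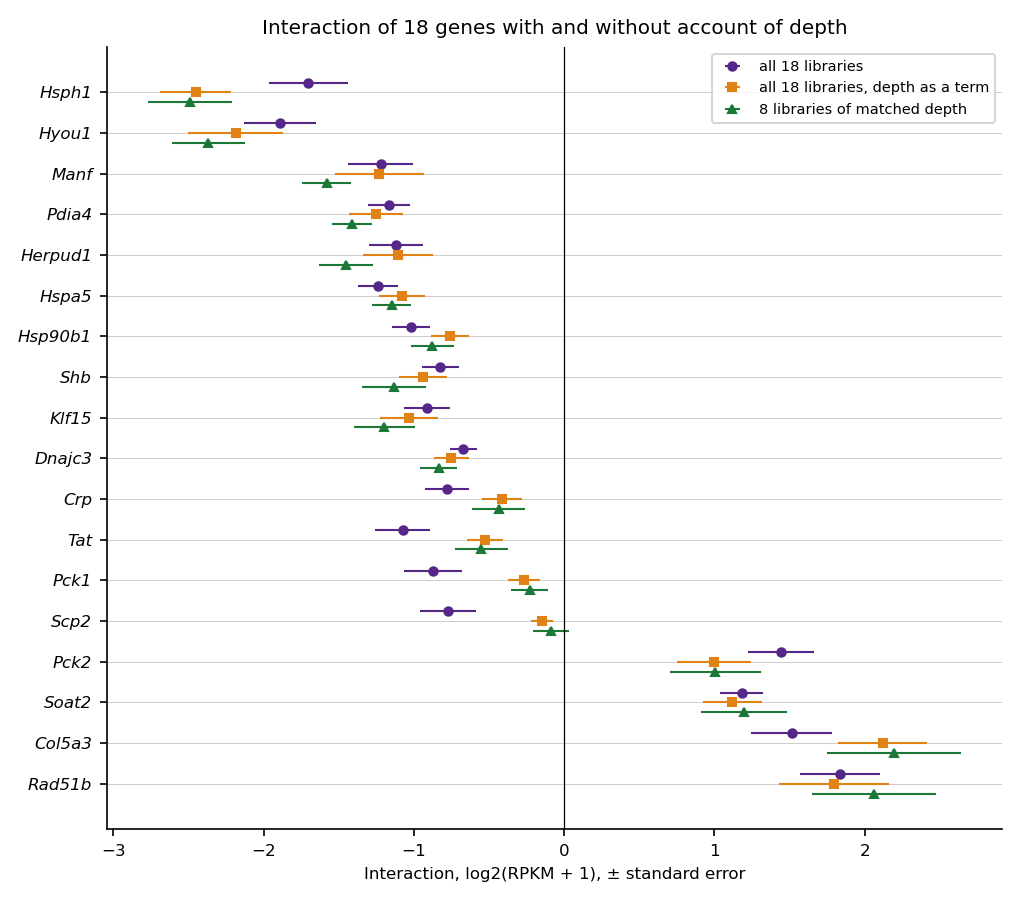
Interaction with its SE for 18 genes, estimated from all 18 libraries, with relative depth as a term, and from the 8 libraries of matched depth. Hsph1, Hyou1, Manf, Pdia4 and Hspa5 stay below -1 under all of these, while Pck1 and Scp2 move to between -0.3 and 0.

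In the other direction, higher in GF_TAC than in GF_JAX and lower in TAC than in JAX, stood genes of several roles. Soat2, which esterifies cholesterol for storage and lipoprotein export, had 63.4, 62.6, 58.3, 50.4 and 54.9 RPKM in GF_TAC and 43.1, 39.7, 40.6, 40.3 and 43.0 RPKM in GF_JAX. It had 31.9, 23.8, 29.7 and 21.8 RPKM in TAC and 42.5, 39.9, 46.2 and 47.8 RPKM in JAX. Neither pair overlaps, and GF_JAX and JAX stood at nearly the same level. Its interaction was 1.18 ± 0.144 (SE; 95% interval 0.88 to 1.49; adjusted p = 0.000691), from a recipients' difference of 0.47 and a vendor difference of -0.71. At matched depth it was 1.20, with an adjusted p of 0.239.

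Pck2, the mitochondrial PEP carboxykinase and a target of ATF4, had 4.19, 5.35, 3.37, 4.21 and 4.11 RPKM in GF_TAC and 2.78, 4.92, 2.33, 2.38 and 2.67 RPKM in GF_JAX. It had 1.87, 1.69, 2.12 and 1.74 RPKM in TAC and 5.25, 4.53, 4.70 and 4.80 RPKM in JAX. The vendor groups are well apart, while GF_JAX 2 alone lies among the GF_TAC libraries. The interaction was 1.44 ± 0.220 (SE; adjusted p = 0.00378), and 1.01 at matched depth (adjusted p = 0.327), where GF_JAX 2 stands alone for its group and the recipients' difference was -0.10. Rad51b, which acts in homologous recombination, had an interaction of 1.84 (adjusted p = 0.00254) that came mainly from vendor mice, at 1.48 to 2.59 RPKM in TAC and 5.93 to 7.60 RPKM in JAX. Its recipients overlapped, at 1.26 to 3.25 RPKM in GF_TAC and 0.794 to 2.05 RPKM in GF_JAX, and at matched depth its interaction was 2.06 (adjusted p = 0.184).

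Col5a3, a chain of type V collagen, ranged from 9.44 to 14.4 RPKM in GF_TAC and from 4.58 to 9.03 RPKM in GF_JAX, and from 3.05 to 6.23 RPKM in TAC and from 5.91 to 10.3 RPKM in JAX. Its recipients did not overlap and its vendor groups overlapped slightly, with an interaction of 1.51 (adjusted p = 0.00966) and 2.20 at matched depth (adjusted p = 0.185). Stellate cell and fibroblast markers, the cells that make most liver collagen, summed to 338 to 434 RPKM in GF_TAC, 291 to 403 RPKM in GF_JAX, 272 to 309 RPKM in TAC and 224 to 303 RPKM in JAX. Of 14 measured markers of these cells 0 passed in limma (2 at an unadjusted p below 0.05, against 17.6% of all genes); at matched depth 13 of the 14 were negative, with a median of -0.44. Their part in the Col5a3 result was not tested. Shb, an adaptor of tyrosine kinase signalling, reversed with the chaperones and without overlap, at 76.9 to 86.5 RPKM in GF_TAC and 93.7 to 113 RPKM in GF_JAX, and at 85.8 to 115 RPKM in TAC and 62.8 to 78.5 RPKM in JAX. Its interaction was -0.82 (adjusted p = 0.0036), and -1.13 at matched depth (adjusted p = 0.168).

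Genes of fasting metabolism showed negative interactions that shrank at matched depth. Among all tested genes 1.12% passed as negative, and in the most abundant bin 73 of 1212. In gluconeogenesis and glucose output 3 of 20 measured genes passed, all negative, and the median interaction was -0.58 over 18 libraries and -0.05 at matched depth. Amino acid breakdown and the urea cycle gave 4 of 34 and medians of -0.49 and -0.07, and bile acid synthesis gave 2 of 16 and medians of -0.37 and -0.01. Klf15, a transcription factor of the first list that raises amino acid breakdown in fasting, had an interaction of -0.91 over 18 libraries (adjusted p = 0.00617) and -1.20 at matched depth (adjusted p = 0.139). Klf15 stood at 133 to 165 RPKM in GF_TAC and 190 to 225 RPKM in GF_JAX, and at 185 to 226 RPKM in TAC and 126 to 192 RPKM in JAX.

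Tat, the tyrosine aminotransferase, had an interaction of -1.07 (adjusted p = 0.00693) and -0.55 at matched depth (adjusted p = 0.35), and reversed without overlap. It stood at 356 to 461 RPKM in GF_TAC and 466 to 735 RPKM in GF_JAX, and at 478 to 648 RPKM in TAC and 349 to 455 RPKM in JAX. For Pck1, the cytosolic PEP carboxykinase, the interaction was -0.87 (adjusted p = 0.0312, and 0.0758 without TAC 2), passing in 9 of 18 fits with 1 library left out, and -0.23 at matched depth (adjusted p = 0.589). Scp2, a peroxisomal sterol carrier and thiolase, had -0.77 (adjusted p = 0.0483, and 0.109 without TAC 2), passing in 2 of 18 such fits, and -0.08 at matched depth (adjusted p = 0.861). Kmo, an enzyme of tryptophan breakdown, had -0.58 (adjusted p = 0.0146) and -0.33 at matched depth (adjusted p = 0.569). Cyp7a1, whose enzyme limits the rate of bile acid synthesis, spread widely within every group, at 11.9 to 31.8 RPKM in GF_TAC and 12.04 to 41.0 RPKM in GF_JAX, and at 27.5 to 64.5 RPKM in TAC and 29.2 to 81.2 RPKM in JAX. Its interaction was 0.37, with a 95% interval of -0.71 to 1.45 (adjusted p = 0.758). Cyp8b1, the sterol 12-hydroxylase, had an interaction of -0.29 (adjusted p = 0.383) and 0.08 at matched depth.

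Acute phase proteins and male-biased genes were lists in which most members had negative interactions and few passed. Among all tested genes 5825 of 12115 had a negative interaction and 1.12% passed as negative. The most abundant bin had 73 of 1212 passing as negative and a median interaction of -0.28. Of 32 acute phase genes 30 were negative and 3 passed, Saa1, Crp and Cebpb, with a median interaction of -0.76 over 18 libraries and -0.10 at matched depth. Saa1, which shares reads with near-identical copies and is therefore uncertain, ranged from 177 to 458 RPKM in GF_TAC and from 187 to 854 RPKM in GF_JAX, and from 157 to 1040 RPKM in TAC and from 69.1 to 107 RPKM in JAX. Its vendor groups are apart and its recipients overlap widely, with an interaction of -2.64 (adjusted p = 0.0426, and 0.0914 without JAX 4). It passed in 5 of 18 fits with 1 library left out, and at matched depth was -2.10 (adjusted p = 0.407). Crp, the mouse C-reactive protein, had -0.78 (adjusted p = 0.0122), but -0.44 at matched depth (adjusted p = 0.458) and -0.41 with depth as a term (adjusted p = 0.251). Cebpb, a factor that drives acute phase genes, had -0.77 (adjusted p = 0.0497, and 0.115 without TAC 2), passing in 2 of 18 fits with 1 library left out, and -0.62 at matched depth (adjusted p = 0.521).

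Of 26 male-biased liver genes 25 were negative and 3 passed (background 5825 of 12115 negative and 1.12% passing). The list's median interaction was -0.66 over 18 libraries and -0.37 at matched depth, where 22 were negative. Selenbp2, which has a near-identical paralog, reversed without overlap at 174 to 266 RPKM in GF_TAC and 292 to 569 RPKM in GF_JAX, and at 117 to 253 RPKM in TAC and 68.9 to 92.4 RPKM in JAX. Its interaction was -1.83 (adjusted p = 0.00456), and -1.52 at matched depth (adjusted p = 0.243). Cyp7b1, the oxysterol 7-hydroxylase, had -1.45 (adjusted p = 0.0142) and -1.42 at matched depth (adjusted p = 0.263). The complement component C6 had -0.65 (adjusted p = 0.0247), a call lost without JAX 3, JAX 4, TAC 2 or TAC 3 (adjusted p up to 0.0659), and -0.65 at matched depth (adjusted p = 0.327). The 14 female-biased genes ran the other way, with a median of 0.49 over 18 libraries and 0.57 at matched depth; 0 of them passed in limma and 3 had an unadjusted p below 0.05, against 17.6% of all genes. All livers here were from males.

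**Figure D4:**
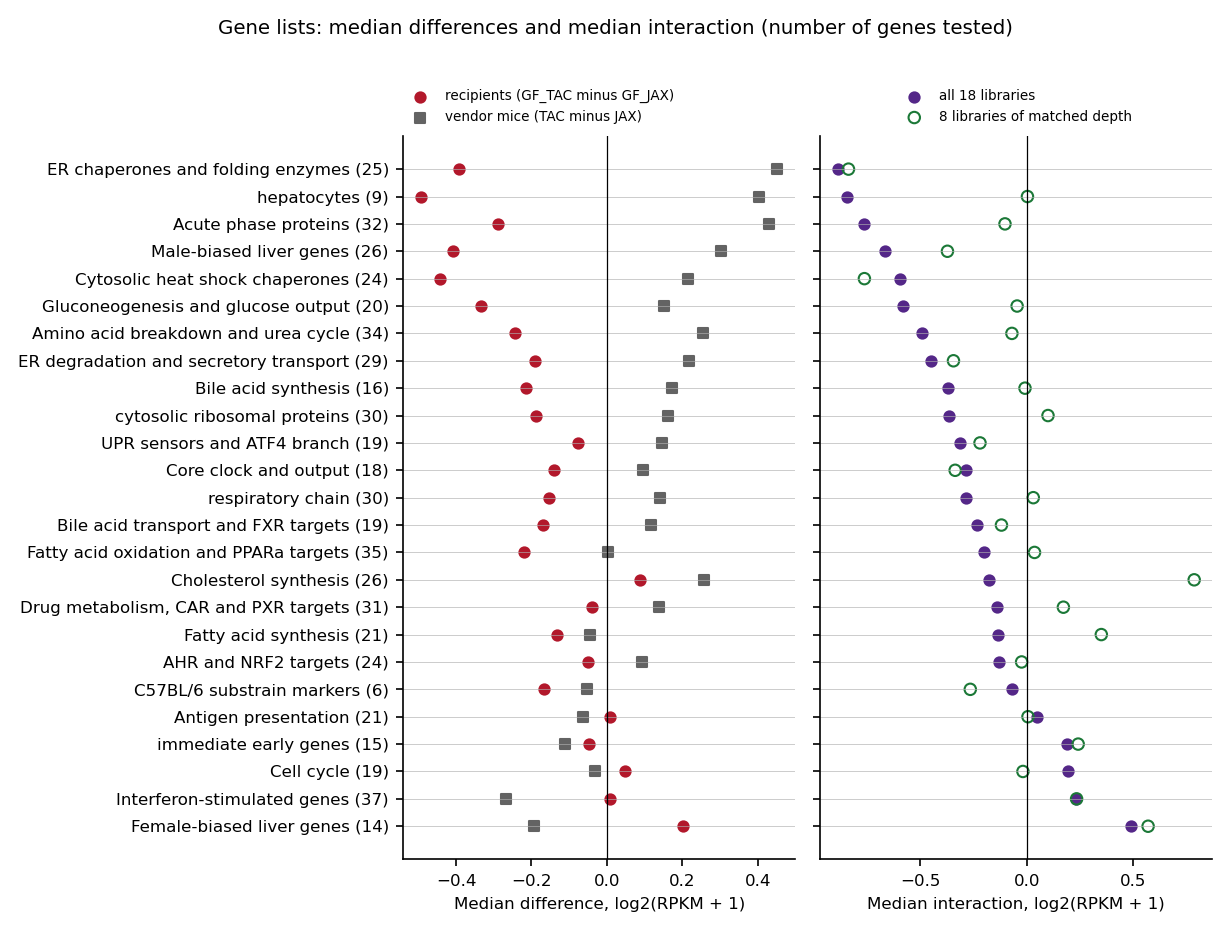
Median recipients' difference (circles) and median vendor difference (squares) of each gene list on the left, and on the right the median interaction from all 18 libraries and from the 8 of matched depth, in log2(RPKM + 1). The ER chaperone list has medians of -0.39 and 0.45 on the left and keeps -0.84 at matched depth on the right, where the acute phase list moves to -0.10.

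Of the genes whose interaction passed, 5 had differences of the same sign over 18 libraries, with the vendor difference the larger by far in the 4 described here. For Tmem98 and Lepr the recipients' difference was close to 0 and its sign depended on the setting, at 0.19 for Tmem98 and 0.18 for Lepr at matched depth and at 0.08 and 0.01 with the shared-start correction. Tmem98, a membrane protein, had 29.3, 33.7, 32.2, 31.5 and 36.0 RPKM in GF_TAC and 35.04, 28.7, 40.6, 32.6 and 28.8 RPKM in GF_JAX. It had 26.4, 21.9, 24.2 and 24.1 RPKM in TAC and 44.5, 47.2, 54.8 and 49.8 RPKM in JAX. The recipients overlap throughout and lie between the vendor groups. Its interaction was 0.97 ± 0.142 (SE; adjusted p = 0.00254), from a recipients' difference of -0.02 ± 0.0946 and a vendor difference of -0.99. At matched depth the Tmem98 interaction was 1.0045 (adjusted p = 0.179).

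Lepr, the leptin receptor, had 0.752, 0.943, 1.17, 1.06 and 0.767 RPKM in GF_TAC and 0.709, 0.601, 0.762, 1.19 and 1.88 RPKM in GF_JAX. It had 1.54, 1.75, 1.75 and 1.76 RPKM in TAC and 3.97, 7.003, 7.59 and 7.45 RPKM in JAX. All recipients but GF_JAX 5 were below every vendor library, and the interaction was 1.41 (adjusted p = 0.0119), and 1.07 at matched depth (adjusted p = 0.322). Mid1, a microtubule-bound ubiquitin ligase, stood at 4.35 to 7.05 RPKM in GF_TAC and 2.79 to 5.97 RPKM in GF_JAX, and at 8.63 to 13.7 RPKM in TAC and 2.05 to 4.09 RPKM in JAX, with an interaction of -1.34 (adjusted p = 0.0216, and 0.0582 without JAX 3) and -1.36 at matched depth (adjusted p = 0.327).

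Entpd4, a nucleotide phosphatase of the Golgi, had the same sign on both sides, with a recipients' difference of -0.20, a vendor difference of -0.83 and an interaction of 0.63 (adjusted p = 0.0338, and 0.0765 without JAX 3). The Entpd4 call held in 8 of 18 fits with 1 library left out, and the interaction was 0.89 at matched depth (adjusted p = 0.153) and 0.68 with depth as a term (adjusted p = 0.205). It belongs to a list of genes whose expression differs between C57BL/6 substrains. Of 6 measured members of that list 3 passed, against 1.62% of all genes tested, and the others were Nnt and Wdfy1. Nnt, the mitochondrial transhydrogenase mutated in the C57BL/6J substrain, had 59.9, 63.3, 56.4, 55.7 and 64.3 RPKM in GF_TAC and 84.1, 57.2, 55.7, 88.4 and 51.5 RPKM in GF_JAX. It had 84.7, 70.0, 89.8 and 84.3 RPKM in TAC and 42.8, 42.3, 41.5 and 44.1 RPKM in JAX. In GF_JAX the libraries 1 and 4 are at the level of TAC and the other 3 are not, and these are the libraries whose relation to transcript length was that of the vendor mice. The Nnt interaction was -1.06 (adjusted p = 0.01), and -0.87 at matched depth (adjusted p = 0.122), with a recipients' difference of -0.13 and a vendor difference of 0.92. Wdfy1, an endosomal adaptor, averaged 9.53 RPKM in GF_TAC and 10.99 RPKM in GF_JAX, and 23.9 RPKM in TAC and 7.74 RPKM in JAX, with an interaction of -1.68 (adjusted p = 0.0173) and -1.85 at matched depth (adjusted p = 0.122).

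Few genes came near agreement between the recipients' and the vendor difference. The mean of both differences, tested in the same fit, passed in 4 genes (0.033%), Entpd4, Tmem98, Eif3j1 and Mid1. In Entpd4, Tmem98 and Mid1 the interaction passed too, and a passing mean does not show agreement there. Their recipients' differences were -0.20, -0.02 and 0.15, and their vendor differences -0.83, -0.99 and 1.49. The genes with the smallest larger p and equal signs were Eif3j1, Eif3j2, Mogat1, Arid3b, Tmem125, Vasn, Sigirr and Prpsap1, each with an adjusted p of 1 for agreement.

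Eif3j1 and Eif3j2 are near-identical copies of a translation initiation subunit, whose reads the counting may split, so their values are uncertain. Eif3j2 took 95.8% to 98.9% of the RPKM of both copies in GF_TAC, and 96.7% to 98.7% in TAC and 1.09% to 5.43% in JAX. GF_JAX was mixed, with 98.5% in GF_JAX 1, 0.398% in GF_JAX 2, 0.305% in GF_JAX 3, 0.319% in GF_JAX 4 and 97.6% in GF_JAX 5. In these 18 libraries the sum of both stayed between 62.1 and 106 RPKM. For Eif3j1 the recipients' difference was -3.01 and the vendor difference -4.79, and for Eif3j2 they were 3.50 and 4.54. At matched depth, where GF_JAX 2 alone stands for its group, these 2 genes passed for agreement.

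The other candidates moved by less. Mogat1, a monoacylglycerol acyltransferase, had 1.67, 2.69, 2.08, 3.04 and 3.29 RPKM in GF_TAC and 4.67, 3.85, 5.43, 3.81 and 3.28 RPKM in GF_JAX. It had 2.61, 2.95, 3.59 and 3.85 RPKM in TAC and 4.40, 7.25, 4.05 and 5.23 RPKM in JAX. The recipients touch at a single library and the vendor groups do not overlap; the recipients' difference was -0.56, the vendor difference -0.54 and the interaction -0.02 (95% interval -0.55 to 0.50). Arid3b, a DNA-binding protein, had 0.42 and 0.46, Vasn, which binds TGF-beta, 0.37 and 0.51, and Sigirr, a brake on interleukin 1 and Toll-like receptor signalling, 0.25 and 0.36, the recipients' difference first. Prpsap1, which associates with phosphoribosyl pyrophosphate synthetase, had 0.20 for both, and Tmem125 had -0.27 and -0.36. Sigirr measured 33.4 to 40.6 RPKM in GF_TAC and 25.6 to 36.8 RPKM in GF_JAX, and 27.6 to 32.4 RPKM in TAC and 21.8 to 24.6 RPKM in JAX, so that its vendor groups were apart and its recipients overlapped.

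**Figure D5:**
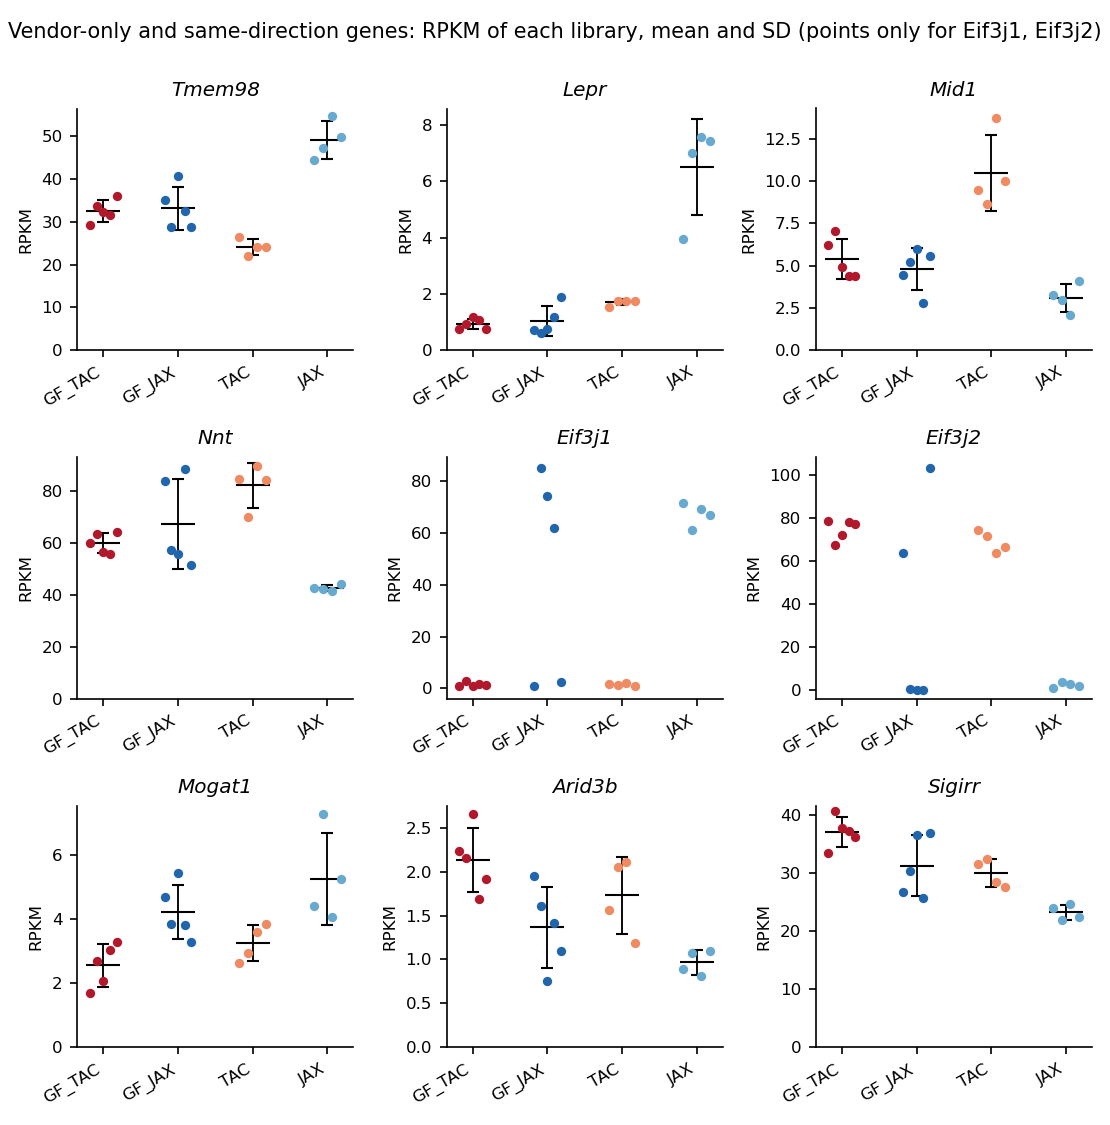
RPKM of 9 genes in every library of GF_TAC, GF_JAX, TAC and JAX. Tmem98, Lepr, Mid1 and Nnt differ between TAC and JAX with recipients that overlap; Eif3j1 and Eif3j2 split GF_JAX into 3 and 2 libraries, and Mogat1, Arid3b and Sigirr shift by small amounts in the same direction on both sides.

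Markers of the liver's other cell types gave few calls. Of the measured markers of Kupffer cells, T and NK cells, B cells, neutrophils, sinusoidal endothelium and erythroid cells, 0 passed in limma, while 1 of 9 hepatocyte markers (Hnf4a, -0.74) did, against 1.62% of all genes tested. All 9 hepatocyte markers were negative with an unadjusted p below 0.05 in limma, against 17.6% of all genes at that p. Their median interaction over 18 libraries was -0.84, beside -0.88 for the ER chaperones. At matched depth the hepatocyte median was 0.003. Cholangiocyte markers gave 1 of 8, with a positive interaction, and a median of 0.38 (0.69 with relative depth as a term). They summed to 70.4 to 92.8 RPKM in GF_TAC, 49.8 to 125 in GF_JAX, 47.9 to 60.6 in TAC and 62.2 to 76.9 in JAX. At an unadjusted p below 0.05 there were 4 of 14 Kupffer cell markers and 1 of 14 endothelial markers, against 17.6% of all genes. At matched depth the Kupffer markers had a median interaction of -0.91, with 12 of 14 negative and 6 at an unadjusted p below 0.05, beside the -0.84 of the ER chaperones. The endothelial markers had a median of -0.40, with 12 of 14 negative. Kupffer markers summed to 345 to 518 RPKM in GF_TAC and 419 to 532 RPKM in GF_JAX, and to 276 to 401 RPKM in TAC and 229 to 401 RPKM in JAX. Endothelial markers summed to 174 to 238 RPKM in GF_TAC and 235 to 280 RPKM in GF_JAX, and to 184 to 228 RPKM in TAC and 171 to 233 RPKM in JAX. The 9 hepatocyte markers, which define the labelled tissue, summed to 3892 to 5329 RPKM in GF_TAC, 4137 to 7936 RPKM in GF_JAX, 4750 to 5963 RPKM in TAC and 3253 to 5040 RPKM in JAX. Of 16 markers of adipose tissue, pancreas, gut and muscle, 3 were at 0 in all 18 libraries (Prss1, Amy2a5 and Tnnt3). These 16 summed to 215 to 269 RPKM in GF_TAC and 178 to 295 RPKM in GF_JAX. In vendor mice they summed to 155 to 214 RPKM in TAC and 207 to 239 RPKM in JAX. Among the lists used as signs of RNA quality, ribosomal protein genes had a median interaction of -0.36 over 18 libraries and 0.10 at matched depth, and immediate early genes 0.19 and 0.24. The part of these values in the chaperone results was not tested.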

How the data were processed

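The authors deposited RPKM values, 1 row per gene and 1 column per library. The submitters' processing notes name Cuffdiff 2.1.1, Bowtie 1.0.0 and mm9; roles, filters and annotation are not given in the sources used here. Of 24397 entries, 461 empty ones and 27 with date-like names were left out. RPKM carry no counts. Depth was read from the steps of low RPKM: 84.1% of 5332 low genes held whole reads within 0.02 reads in every library.

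Genes that reached an RPKM of 1 in 4 or more of 18 libraries were tested on log2(RPKM + 1), with a pseudocount of 1, in one model of 4 group means in limma 3.58.1 (trend) in R 4.3.3, two-sided, with Benjamini-Hochberg adjustment over 12115 genes and a threshold of 0.05. The germ-free group without transfer was not fitted. All adjusted p are from limma. A fold on this scale understates the change of low genes. The scripts were tested on simulated data.

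Named genes were the 12 opposite-signed and 4 same-signed interaction genes of smallest p, the 8 agreeing and 4 further reversing genes of smallest larger p, up to 3 members of each list with 2 or more calls, and 8 set genes; predicted genes and the Mup family were left out, and 2 genes the rule names are not reported here. Members, lists and rule were chosen with earlier results of these data known. Alternatives covered pseudocount, filter, scaling, depth, library type, weights, the replicate block and leaving out each library.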

Additional observations from a re-analysis of the deposited data

Results flagged for a closer look

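In groups of 4 or 5 libraries of the named genes, 9 of 196 had a library far from the others, where chance gives about 1 in 20. Among recipients these were Hyou1 in GF_JAX 5 (73.8 RPKM), Pdia3 in GF_JAX 3 (274 RPKM), Selenbp2 in GF_JAX 3 (569 RPKM) and Pck2 in GF_JAX 2 (4.92 RPKM). Among vendor mice they were Lepr in TAC 1 (1.54 RPKM) and JAX 1 (3.97 RPKM), Wdfy1 in TAC 2 (15.2 RPKM) and JAX 4 (10.8 RPKM) and Cebpb in JAX 3 (297 RPKM).

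The recipients' difference and the vendor difference were unlike each other by the interaction test in 39 of the 49 named genes, listed here with the interaction in log2(RPKM + 1). ER folding genes had -1.24 for Hspa5, -1.16 for Pdia4, -1.02 for Hsp90b1, -1.89 for Hyou1, -0.67 for Dnajc3, -0.92 for Pdia3, -0.58 for Canx and -1.22 for Manf. Genes of ER degradation and transport had -1.12 for Herpud1, -0.60 for Sec61a1, -0.45 for Mcfd2 and -0.54 for Vcp. Cytosolic chaperones had -1.70 for Hsph1, -0.68 for Dnaja1 and -0.89 for Hspa8.

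In metabolism the values were -0.91 for Klf15, -1.07 for Tat, -0.87 for Pck1, -0.58 for Kmo, -0.77 for Scp2, -1.45 for Cyp7b1 and -0.50 for Dgat2. Dgat2, of fatty acid synthesis, passed in 6 of 18 fits with 1 library left out. Its interaction was -0.18 with depth as a term (limma, adjusted p = 0.411) and -0.19 at matched depth. Secreted and acute phase genes had -0.65 for C6, -0.78 for Crp, -2.64 for Saa1 and -0.77 for Cebpb, and Selenbp2 had -1.83. Ddit4 had -1.86 and Shb -0.82. The positive ones were 1.18 for Soat2, 1.84 for Rad51b, 1.44 for Pck2, 1.51 for Col5a3, 0.97 for Tmem98, 1.41 for Lepr and 0.63 for Entpd4. Genes led by the vendor difference with a negative interaction were Mid1 with -1.34, Nnt with -1.06 and Wdfy1 with -1.68.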

How the results depend on the processing

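The 196 interaction genes became 120 with no filter, 336 with a common sum, 108 with quantile normalization, 20 with depth as a term, 336 with the shared-start correction, 39 with the replicate block, 30 with the shared-start correction and depth together and 11 at matched depth (the last 2 alternatives chosen after seeing the data). Leaving out 1 library gave 75 to 463, with 75 without JAX 4, 80 without JAX 3, 92 without TAC 2, 103 without TAC 4, 108 without TAC 3, 129 without GF_JAX 1, 463 without GF_JAX 2, 299 without GF_JAX 5, 90 without GF_TAC 1, 105 without GF_TAC 2, 116 without GF_TAC 3, 125 without GF_TAC 4 and 103 without GF_TAC 5. Adjusted reversal passed in 3 genes with weights and in 0 to 2 with 1 library left out, and adjusted agreement in 2 at matched depth and in 0 to 0 otherwise. The 338 nominal reversals became 219 with quantile normalization, 143 at matched depth and 216 to 446 with 1 library left out (216 without TAC 2). The 26 nominal agreements became 11 with a common sum, 7 with depth as a term, 43 with library type as a term, 17 with weights, 14 with the shared-start correction, 17 with the replicate block, 53 without GF_JAX 1 and 4 together, 6 with both corrections, and 15 to 34 with 1 library left out (16 without JAX 3, 17 without GF_JAX 1, 15 without GF_TAC 4). Of the ER chaperones 16 passed, but 6 with depth as a term, 9 with the block, 6 with both corrections, 6 at matched depth and 10 to 18 with 1 library left out. Of the heat shock chaperones 10 passed, but 4 with a common sum, 5 with quantile normalization, 3 with depth as a term, 5 with the shared-start correction, 1 with the block, 4 with both corrections, 1 at matched depth and 4 to 11 with 1 library left out. Cyp8b1 was -0.29 as reported, and 0.11 with quantile normalization, 0.11 with depth as a term, 0.18 with the shared-start correction, 0.22 with both and 0.084 at matched depth. The cause of these changes was not tested.

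The labels do not say that replicate numbers pair the samples. Same-numbered libraries had correlations of -0.12 to 0.161 in recipients and 0.025 to 0.061 in vendor mice. The own number was the best partner in 3 of 4 vendor and 0 of 5 recipient numbers, which does not settle whether vendor libraries were paired. With the replicate block 39 genes passed in place of 196. Over named genes and alternatives, 1369 of 1662 values kept direction and side of the threshold, 282 kept direction only, 6 newly passed and 5 changed direction. Depth limits low genes: libraries held 1.32 to 3.70 M reads.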

Other observations

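Genes of cholesterol synthesis gave different medians with depth. Of 26 measured, 17 had a negative interaction over 18 libraries, with a median of -0.18; 0 passed in limma and 1 had an unadjusted p below 0.05. At matched depth 25 of 26 were positive, with a median interaction of 0.79, a median recipients' difference of 0.86 and a median vendor difference of -0.11; 16 had an unadjusted p below 0.05 and Nsdhl passed. With relative depth as a term the median was 0.47. At matched depth GF_JAX rests on the single library GF_JAX 2, and the part of that library in these values was not tested.

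Germ-free mice without a transfer entered no comparison. Hspa5 measured 261, 246, 256 and 307 RPKM in these 4 libraries and Hyou1 46.4, 70.2, 60.9 and 64.5 RPKM. Soat2 measured 36.7, 32.3, 38.3 and 35.3 RPKM. Eif3j2 took 98.7%, 17.1%, 1.77% and 97.6% of the RPKM of Eif3j1 and Eif3j2 together in them.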
